A study of Mus musculus with 2 samples.

Results

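Selp, Vcam1, Icam1, Icam2, Madcam1, Pecam1 and Vwf are the genes of 7 proteins through which vessel walls and stroma hold leukocytes. They were chosen by name and read in every cell type that the authors had labelled in the mouse colon and small intestine. All 7 were among the 18262 genes listed for the small intestine and 6 among the 16381 listed for the colon. Madcam1 was not listed for the colon, which was not treated as a measured 0, so Madcam1 has values for the small intestine alone and no tissue ratio.

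The study profiled the gut of healthy, untreated mice by droplet sequencing of the 3′ ends of polyA RNA, with 1 library per tissue and therefore no replicates. The epithelium was first stripped off, the remaining tissue was digested with Collagenase XI and Dispase II, for 60 min for the colon and 45 min for the small intestine, and living cells without CD45 (leukocytes) and CD326 (EpCAM, epithelium) were sorted and loaded fresh, about 16000 per library. Both libraries share that sort and the untreated state, and the labels used here give neither the strain, sex and age of the animals nor how many were pooled. Digestion time and tissue cannot be told apart. The colon library held 6018 cells with a median of 6598 UMIs (unique molecular identifiers, each standing for 1 captured RNA molecule), and the small intestine held 9359 cells with a median of 5943.

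Leukocytes leave the blood in steps. Selectins on the vessel wall, such as P-selectin (Selp), catch and roll them, immunoglobulin-family ligands for leukocyte integrins (Icam1, Icam2, Vcam1 and, in gut vessels, Madcam1) arrest them, and Pecam1 at endothelial junctions takes part in their passage. Venules carry most of this traffic, and Madcam1 is the gut address that binds integrin alpha4beta7 on lymphocytes. Von Willebrand factor (Vwf) captures platelets and forms the Weibel-Palade bodies, the endothelial granules in which P-selectin is stored.

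The upstream sequences of Selp, Madcam1 and Icam1 are shown because only these members had one at hand. Each line gives, 5′ to 3′ on the plus strand, the 250 bases before the annotated start of the gene, from RefSeq on GRCm38.p6, the assembly that mm10 also names. The table used here held such a window for 3 of the 7 members. Capitals mark matches to the NF-kB type motif GGGNNNNNCC on either strand, which runs together where matches overlap.

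Selp, chr1:164115014-164115263: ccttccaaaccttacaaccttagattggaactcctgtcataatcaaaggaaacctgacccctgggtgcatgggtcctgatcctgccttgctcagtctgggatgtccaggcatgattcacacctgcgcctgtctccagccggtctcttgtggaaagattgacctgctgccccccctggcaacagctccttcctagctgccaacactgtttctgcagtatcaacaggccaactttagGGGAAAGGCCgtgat
Icam1, chr9:21015690-21015939: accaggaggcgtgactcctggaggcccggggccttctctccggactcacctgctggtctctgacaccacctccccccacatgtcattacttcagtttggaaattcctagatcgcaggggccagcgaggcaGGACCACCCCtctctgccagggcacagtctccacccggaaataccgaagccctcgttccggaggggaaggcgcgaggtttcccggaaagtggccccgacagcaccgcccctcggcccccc
Madcam1, chr10:79664309-79664558: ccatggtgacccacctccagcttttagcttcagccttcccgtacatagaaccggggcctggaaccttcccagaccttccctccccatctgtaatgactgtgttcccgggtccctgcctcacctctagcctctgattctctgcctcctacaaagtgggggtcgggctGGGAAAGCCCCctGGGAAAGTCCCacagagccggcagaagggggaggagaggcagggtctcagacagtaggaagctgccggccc

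The Selp window held 1 match and the Icam1 window 1, beginning 15 and 120 bases before the start. The Madcam1 window held 4 overlapping matches in 2 stretches, beginning between 84 and 70 bases before the start. Of 32851 windows of the same length, 45.8% held at least 1 match. A match to letters is a description and not a binding site, and a stretch that this 1 pattern leaves unmarked may still be one. The motif CACTTNA, of the kind bound by NK2 homeodomain factors such as Nkx2-3, stood in 10.1% of all windows and in 0 of these 3. On the same build, Vcam1 lies on chromosome 3 from 116110020 to 116129688, Vwf on chromosome 6 from 125552948 to 125686679, and Icam2 (106377656 to 106388139) and Pecam1 (106654213 to 106715281) both lie on chromosome 11. Selp itself spans 164115264 to 164150026 on chromosome 1, Icam1 21015940 to 21028814 on chromosome 9 and Madcam1 79664559 to 79668542 on chromosome 10.

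Levels are given as CPM, the UMIs of a gene in a type divided by all UMIs of the type and scaled to counts per 1000000, with exact Poisson 95% intervals in brackets. Shares of cells with at least 1 UMI carry exact Clopper-Pearson intervals, and tissue ratios are log2(colon CPM / small intestine CPM) with exact conditional binomial intervals. With 1 library per tissue no test was possible, and every interval covers counting error only, not the spread between mice. A ratio is called here when it is at least 2-fold and its interval stays on 1 side of 0. Fewer UMIs of a gene in a type can mean fewer cells that carry it or less RNA in each, which the shares of cells help to tell apart.

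The 6 types compared were blood endothelial cells (BECs, 53 in the colon and 524 in the small intestine), lymphatic endothelial cells (LECs, 217 and 2498), CD81- fibroblasts (CD81- FBs, 3631 and 2823), CD81+ trophocytes (875 and 1913), PDGFRa-high myofibroblasts (SEMFs, 1105 and 1109) and smooth muscle cells (SMCs, 125 and 468). The 53 colon BECs join 45 cells with the capillary label, 4 arterial and 4 venous. Leaving the members out, BECs had the highest level of 6 of 7 blood endothelial markers in the colon (not Tie1) and of 5 of 7 in the small intestine (not Kdr and Tie1), and 7 and 6 of 7 lymphatic markers were highest in LECs. The label of small intestinal SMCs also carried fibroblast RNA: all 6 smooth muscle markers were highest there, yet the 6 fibroblast markers summed to 12919 CPM, against 5831 CPM in colon SMCs. Colon BECs stood apart in the same way, with fibroblast markers at 3697 CPM against 362 in the small intestine and leukocyte markers at 171 CPM against 2.28. A related set of leukocyte and platelet markers, without Lyz2, had 46 UMIs in colon BECs. These lay in 6 of the 53 cells, 16 of them in 1 cell. The libraries shared 21 cell barcodes.

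Among the 6 types compared in the small intestine, all 7 members had their highest level in BECs, whereas 17.1% of all 12918 genes with at least 100 UMIs did. Pecam1, Icam2, Selp, Vwf and Vcam1 are themselves used elsewhere as endothelial or venous markers. The choice of members by name thus favoured BECs, and these counts only describe where the members were found. In the colon 3 of 6 did, namely Selp, Pecam1 and Vwf, against 22.2% of 12216 genes. Colon Vcam1 was highest in CD81- FBs, where 9.63% of genes were, Icam1 in trophocytes and Icam2 in LECs, where 20.3% of genes were. In the small intestine 0 members were highest in CD81- FBs or LECs, where 7.65% and 21.0% of genes were. The colon orders of Icam1 and Icam2 were not resolved beyond counting error: colon Icam1 in trophocytes, BECs and LECs differed by log2 0.03 (-0.23 to 0.31) and 0.03 (-0.27 to 0.32) between neighbours, and colon Icam2 in LECs and BECs by 0.08 (-0.47 to 0.68). Nor was the small intestinal order of Icam2 in BECs and LECs, which differed by 0.13 (-0.03 to 0.28), and the 24 cells labelled Proliferating, outside the 6 types, had 219 CPM of Icam2 against 186 in BECs. Without the 5% of cells with most UMIs, or without cells holding leukocyte or platelet marker UMIs, 5 of the 6 were highest in colon BECs.

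**Figure D1:**
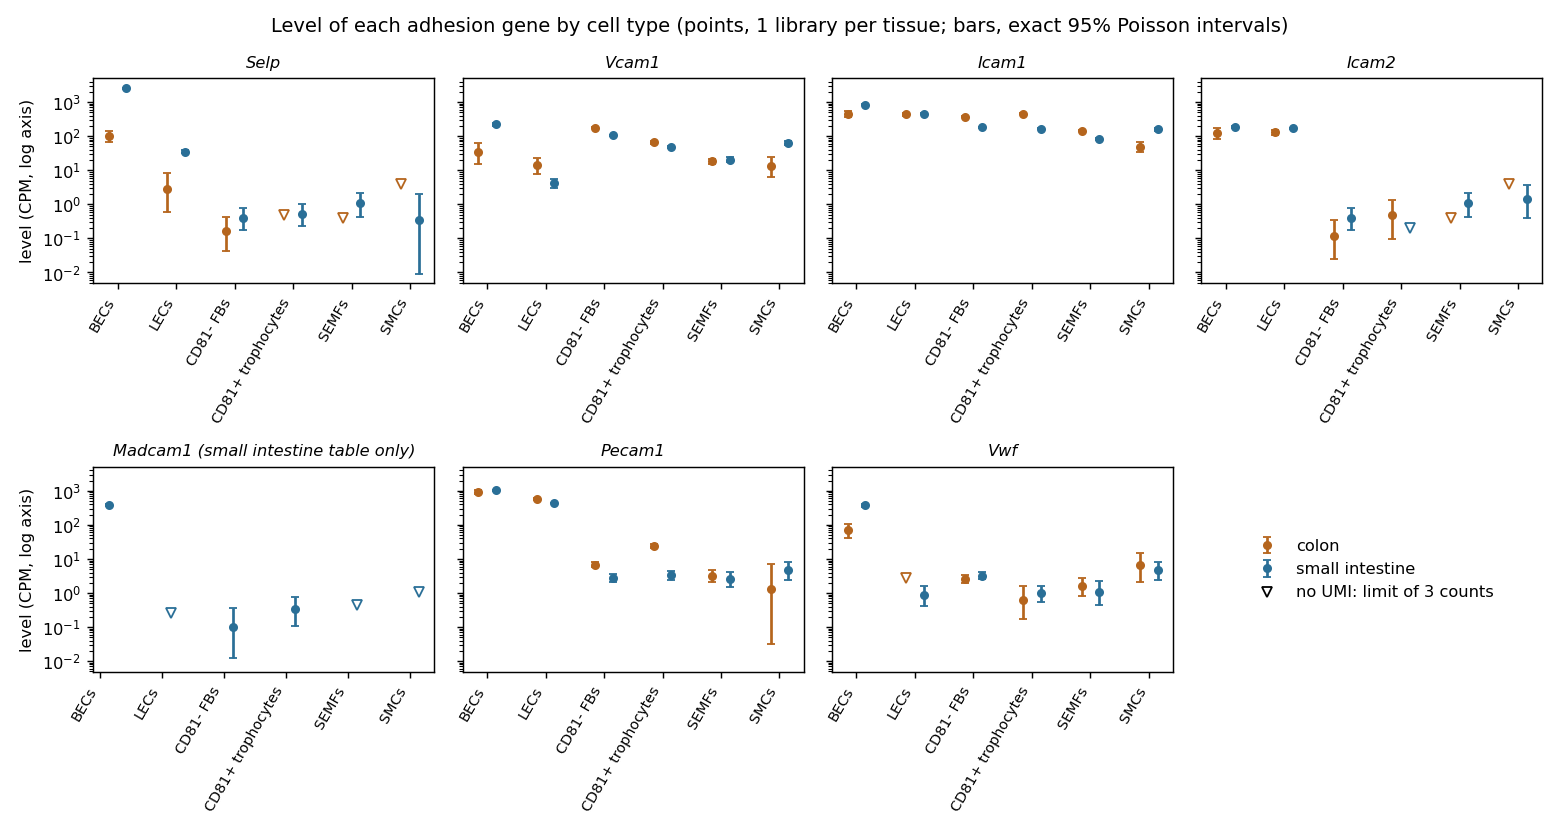
Level of each member (CPM, log axis) in the 6 cell types of the colon (brown) and the small intestine (blue), 1 library per tissue, with exact 95% Poisson intervals; open triangles are the limit set by 3 counts where no UMI was found. Selp, Madcam1 and Vwf stand high in BECs alone, Icam2 and Pecam1 in both endothelial types, and Icam1 and Vcam1 also in the fibroblast labels.

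P-selectin RNA marked a part of the small intestinal BECs and was nearly missing from the colon BECs sampled. In small intestinal BECs Selp stood at 2578 CPM (2511 to 2646), from 5652 UMIs in 194 of 524 cells, or 37.0% (32.9 to 41.3). The cell with most Selp held 197 UMIs, 3.49% of the total, so no single cell set this level. The spread was wide: 330 cells had 0 UMIs, 16 had 1 or 2, 36 had 3 to 9, 64 had 10 to 29, and 78 had 30 or more, these last holding 75.3% of all UMIs. By contrast, Selp was seen in 0.283% of CD81- FBs of that library at a deeper median of 6977 UMIs per cell, against 3651.5 in BECs.

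Colon BECs had 27 Selp UMIs, or 100.1 CPM (66.0 to 146), in 3 of 53 cells. A single cell held 22 of the 27, or 81.5%, and without it the level was 19.0 CPM. All 3 cells had the venous label: of its 4 cells, the first held 4 Selp UMIs, the second 1, the third 0 and the fourth 22. The same 4 cells held 3, 8, 0 and 8 UMIs of Ackr1, a chemokine-binding receptor of venules, and 27, 1, 1 and 10 of Icam1. Capillary-labelled colon cells had 0 Selp UMIs in 227153, which allows up to 3 counts. The colon value thus describes 3 cells.

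The log2 ratio of Selp in BECs was -4.69 (-5.29 to -4.14), or 25.7-fold. It was -7.04 without the top cell of each library and at most -7.61 with the capillary label alone in the colon. That label leaves out every colon BEC with Selp, while small intestinal BECs have no such labels and were kept whole. The 4 colon cells with the venous label stood at 1125 CPM (741 to 1637), and at 287 CPM without their top cell. All small intestinal BECs together stood at 2578 CPM. Among colon BECs, 26 of the 27 Selp UMIs lay in the 11 cells that had Y-linked but not Xist UMIs. The 22 cells that had Xist but not Y-linked ones held 0, which made the first group at least log2 3.95 higher. Those 26 UMIs came from the venous-labelled cells with 22 and 4, or 18.2% of the 11 cells. The difference therefore describes these few cells and cannot be read as one between sexes or animals. With those 11 colon cells alone the tissue ratio was -2.50. The labels do not say whether animals were pooled.

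Vwf had the same home and the same direction. Its level in BECs was 70.5 CPM (42.4 to 110) in the colon and 372 CPM (347 to 399) in the small intestine, with UMIs in 18.9% and 51.7% of cells. Small intestinal Vwf was spread over 271 cells, the highest of which held 2.94% of its UMIs. Of the 19 colon UMIs 1 cell held 6. The ratio was -2.40 (-3.14 to -1.75), 5.28-fold. Outside BECs, Vwf lay between 0.628 and 6.47 CPM in colon types other than LECs and between 0.892 and 4.63 CPM in the small intestine. LECs held 0 Vwf UMIs in the colon and 10 in the small intestine.

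Read against all genes, 3 of 6 members (Selp, Vcam1 and Vwf) were called higher in small intestinal BECs and 0 in colon BECs, where 18.7% and 3.10% of 4221 genes with at least 100 UMIs in the 2 libraries together were. The median gene ratio in BECs was -0.29, and relative to it Selp stood at -4.40, Vcam1 at -2.46 and Vwf at -2.11. The members' median was -1.66. The venous marker list, which shares Selp, Vcam1 and Vwf with the members, was higher in the small intestine for 7 of 7 genes, with a median of -2.86: its other genes are Ackr1 (-2.86), Nr2f2, a transcription factor of venous identity (-2.43), Lrg1 (-3.28) and Tll1 (-3.97). Of 7 capillary markers, 4 were higher in the colon, namely Rbp7 (3.18), Rgcc (2.16), Car4 (1.68) and Kdr, the VEGF receptor (1.06). These markers moved with the ratios of Selp, Vwf and Vcam1, and their part in the result was not tested.

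As an alternative added after the data were seen, BECs with any Ackr1 UMI were left out. They were 3 of 53 in the colon (5.66%, 1.18 to 15.7) and 172 of 524 in the small intestine (32.8%, 28.8 to 37.0). Without them the colon had no Selp UMI and the ratio was at most -4.96, Vwf stayed at -2.32, Vcam1 moved to -0.76 and Icam1 to -0.21.

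Madcam1, the mucosal addressin, was almost confined to small intestinal BECs: they held 866 of its UMIs, 99.2% of the library's, at 395.0 CPM (369 to 422). It was found in 169 of 524 cells, or 32.3% (28.3 to 36.4), and its top cell held 2.31%. Trophocytes had 5 UMIs in 3 cells and CD81- FBs 2. The other 3 types had none, and in LECs the 0 count in 11207713 UMIs allows up to 0.268 CPM. Madcam1 was found at 1 or 2 UMIs in 49 cells, at 3 to 9 in 98, at 10 to 29 in 22 and at 30 or more in none.

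Selp and Madcam1 fell on the same cells. Of the 524 small intestinal BECs, 166 held both, 28 Selp without Madcam1, 3 Madcam1 without Selp and 327 neither. In the 194 cells with Selp, Madcam1 stood at 794 CPM against 13.4 in the 330 without, a log2 ratio of 5.89 (5.16 to 6.73). Cells with Selp were deeper, with a median of 5120.5 UMIs against 2905.5. After each cell was thinned to 1500 UMIs, which left out 37 shallower cells, 61.0% of the 182 cells that kept a Selp UMI also had Madcam1, against 3.61% of the other 305. Ackr1 followed the same cells, at 1032 against 9.82 CPM, and 168 of its 172 positive cells also had Selp. Cells of 1 library are not replicates, so these ratios carry counting intervals and no test.

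The other members split into those that followed Selp and those that did not. Icam1 stood at 1461 CPM in cells with Selp against 267 without (log2 2.45, 2.27 to 2.64), Vcam1 at 393 against 63.4 (2.63, 2.27 to 3.01) and Vwf at 570 against 183 (1.64, 1.41 to 1.87). Icam2 went the other way, with 153 against 218 CPM (-0.51, -0.80 to -0.22), and so did Pecam1, with 809 against 1253 CPM (-0.63, -0.76 to -0.51). Pecam1 was seen in 93.8% of cells with Selp and 92.4% of those without, and after thinning to 1500 UMIs in 70.9% and 82.3%. In all, 130 cells held Selp, Madcam1, Vwf and Icam1 together, 39 held all 7 members and 9 held none.

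**Figure D2:**
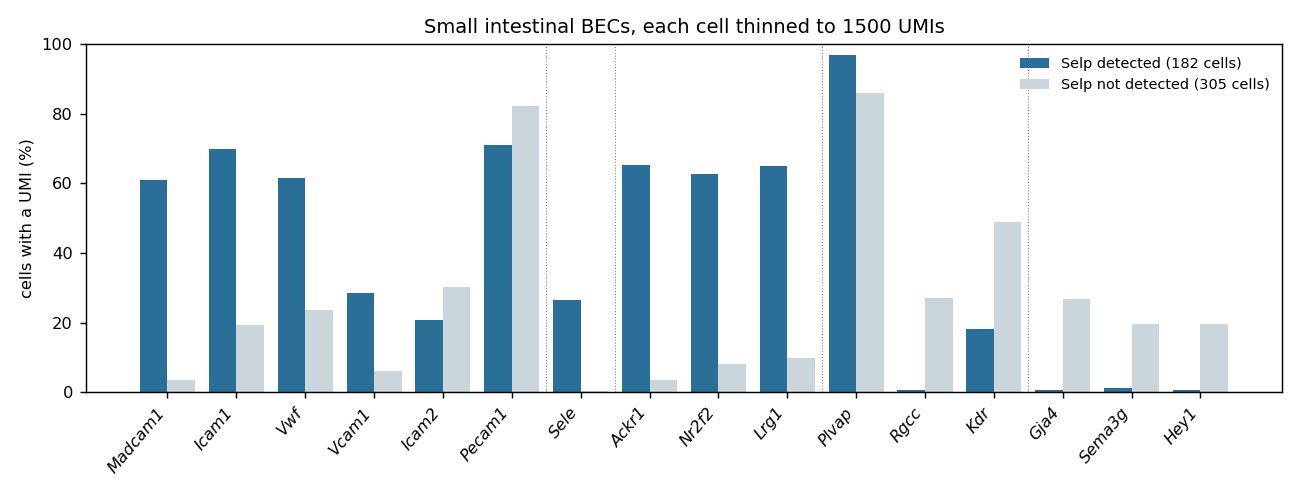
Share of small intestinal BECs (percent) with a UMI of each gene after thinning to 1500 UMIs per cell, in 182 cells with Selp (blue) and 305 without (grey); dotted lines divide members, Sele, venous, capillary and arterial markers. Madcam1, Icam1, Vwf, Vcam1, Sele and the venous markers are seen more often in cells with Selp, Icam2, Pecam1, Rgcc, Kdr and the arterial markers less often, and Plvap in most cells of both.

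Around Selp, 2 other adhesion genes stood out in the list of 28. Sele, the inducible E-selectin, had 342 UMIs in cells with Selp and 0 in those without, at least log2 6.90 higher. Bst1, a surface enzyme, had 32 UMIs against 1. Podxl, a sialomucin of the vessel lumen, was lower in cells with Selp (101 against 553 CPM, -2.46), as was Jam3, a junctional adhesion molecule (12.1 against 95.5 CPM, -2.98). Cdh5, the endothelial cadherin, stood at 661 and 684 CPM. Among venous markers Nr2f2 (2.80), Lrg1 (3.67) and Tll1 (2.67) were higher with Selp. Capillary markers differed among themselves: Rgcc differed by log2 -6.72 (-9.00 to -5.16, from 3 and 330 UMIs) and Kdr by -1.99, while Plvap, the diaphragm protein of fenestrated vessels, differed by 0.05 (-0.02 to 0.13). The arterial genes Gja4 (-4.92), Sema3g (-4.40) and Hey1 (-4.45) were lower.

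Haemostasis genes also divided these cells. Procr, the receptor of protein C, stood at 445 CPM with Selp and 54.5 without (3.03), and Plat, tissue plasminogen activator, at 56.0 and 576 (-3.36). Edn1, the vasoconstrictor endothelin, was lower with Selp (155 against 439 CPM). Of the other stored or coagulation genes, Ecscr (0.03) and Cd63 (-0.09) had intervals that include 0.

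Receptors and regulators linked to these genes were read from a list of 17. A place on that list, as for Klf2 below, does not mean that a gene induces the members. The interleukin-1 receptor Il1r1 was at 613 CPM with Selp and 123 without (2.31), Tlr4 at 62.5 and 19.6 (1.67), the NF-kB subunit Relb at 145 and 68.7 (1.08), and Nfkbia, an NF-kB inhibitor and target, at 2937 and 810 (1.86). Nfkb1 differed by 0.05 (-0.21 to 0.30), and Nkx2-3, a homeobox factor of gut vessels, by 0.26 (0.09 to 0.43). Between the tissues, 2 of the 17 were called higher in small intestinal BECs, Il1r1 (-2.09) and Klf2 (-1.29), where 18.7% of all genes were. RNA from other cells moved with the split too: cells without Selp carried more Dcn, a fibroblast proteoglycan (296 against 79.3 CPM), and more Lyve1, a lymphatic receptor (280 against 60.6 CPM), whose part in the result was not tested.

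By the rule for partner genes, which ranks genes seen in at least 20% of positive cells by their ratio after adding 10 CPM, those leading for Selp were Ackr1, Madcam1, Sele, Hdc (histidine decarboxylase, 575 against 17.9 CPM) and Adgrg6 (954 against 42.9 CPM), of 3339 genes ranked. For Madcam1 they were Sele, Hdc, Ackr1, Selp and Hdac9, and for Vwf Hdc, Selp, Mir100hg, Cers6 and Adgrg6. Selp, ranked after Hdc for Vwf, stood at 3906 CPM in the 271 cells with Vwf and 512 in the 253 without.

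Selp was also found in a few small intestinal LECs. It had 393 UMIs there, 35.1 CPM (31.7 to 38.7), in 93 of 2498 cells, or 3.72% (3.02 to 4.54), above the 0.283% of CD81- FBs. Of these cells, 14 had 10 or more UMIs and held 55.5% of the total, and the top cell held 25. They carried lymphatic RNA like the rest: 93 of 93 had Mmrn1, 92 Lyve1 and 87 Prox1, the lymphatic master factor, and Prox1 stood at 743 CPM against 806 in LECs without Selp. Venular RNA was scarce in them, with Ackr1 and Vwf in 1 cell each and Madcam1 in 0. At the proportions of BECs, 393 Selp UMIs go with 60.2 Madcam1, 56.7 Vwf and 77.7 Ackr1 UMIs. All LECs together held 0, 10 and 7. The same proportions give 34.2 Vcam1 and 393 Plvap UMIs, and all LECs together held 47 and 208. These counts were not limited to LECs with Selp. The 46 LECs with 2 or more Selp UMIs held 0 Vcam1 and 4 Vwf UMIs, and the 2405 without Selp held 45 and 6. The source of the Selp RNA in LECs was not tested. Plvap was higher in LECs with Selp (67.9 against 16.3 CPM, 2.06) and seen in 9 of the 93, and Icam1 stood at 940 against 434 CPM (1.11, 0.97 to 1.25).

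Colon LECs had 3 Selp UMIs in 1 of 217 cells, 2.82 CPM (0.581 to 8.23). The tissue ratio was -3.64 (-5.92 to -2.08), from those 3 UMIs, and it was the 1 member called higher in small intestinal LECs, where 14.7% of 9169 genes were. Vcam1 was the 1 member called higher in colon LECs, where 3.45% were, with 14.1 against 4.19 CPM (1.75, 0.80 to 2.61) from 15 and 47 UMIs. Fibroblast markers summed to 1699 CPM in colon LECs and 731 CPM in small intestinal ones. In LECs with fewer than 2 UMIs of Dcn, an alternative added after the data were seen, the direction turned and Vcam1 stood at -1.07. Icam1 in LECs was level between tissues, at 440 and 457 CPM (-0.05, -0.19 to 0.08), and Icam2 stood at 130 and 171 CPM (-0.40, -0.66 to -0.15).

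**Figure D3:**
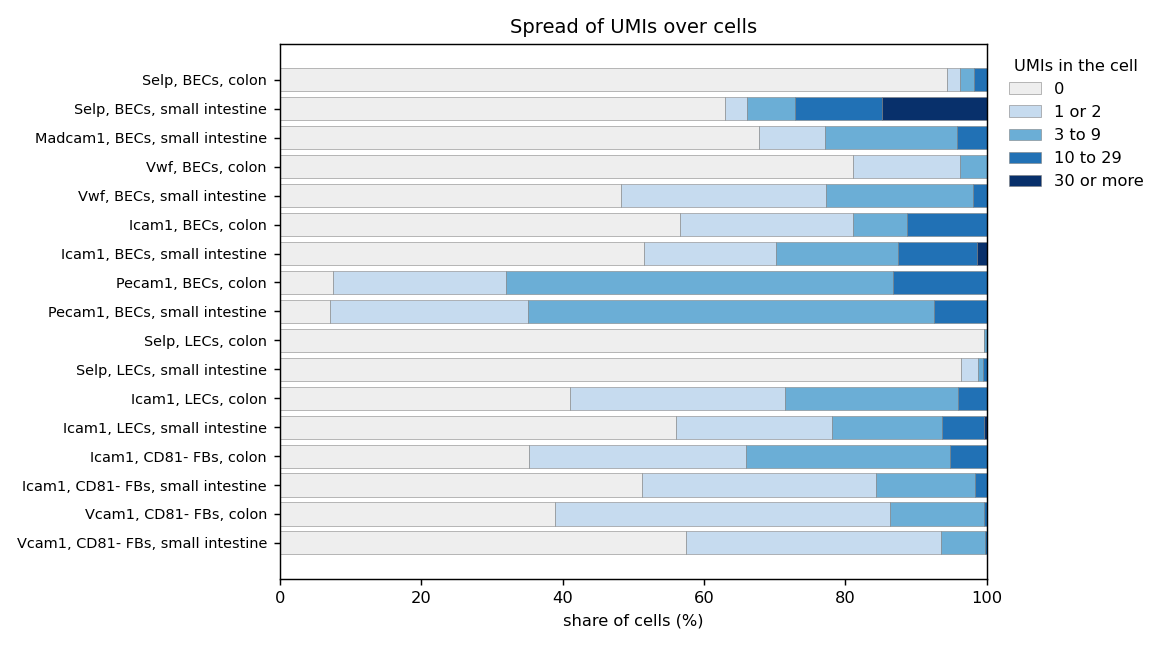
Share of cells (percent) in 5 classes of UMIs per cell for selected members, types and libraries; cells were not thinned, and median depth differs between rows. Selp is at 0 in 63.0% of small intestinal BECs and at 30 or more UMIs in 14.9% of them, whereas Pecam1 is found in most BECs of both libraries and seldom passes 10 UMIs.

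Icam1, the ligand of leukocyte integrin LFA-1, had UMIs in each of the 6 types of both libraries, as did Vcam1 and Pecam1. In BECs it stood at 449 CPM (372 to 536) in the colon and 851 (813 to 890) in the small intestine, in 43.4% and 48.5% of cells, a ratio of -0.92 (-1.20 to -0.66) that misses 2-fold. The top colon cell held 27 of 121 UMIs, 22.3%. With the 11 Y-linked colon BECs alone the ratio was -0.01 and with the 22 Xist cells -1.34.

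In the fibroblast labels Icam1 was higher in the colon. CD81- FBs had 373 CPM (365 to 381) in the colon and 182 (176 to 188) in the small intestine, in 64.7% and 48.8% of cells, a ratio of 1.04 (0.98 to 1.09). Trophocytes, the CD81+ fibroblasts, had 459 CPM (442 to 476) and 167 (161 to 174), in 75.4% and 57.3% of cells, a ratio of 1.46 (1.38 to 1.53). SEMFs had 146 and 84.2 CPM (0.80, 0.65 to 0.95). SMCs went the other way, at 47.9 and 158 CPM (-1.72, -2.24 to -1.23), and there the small intestinal label carried the fibroblast RNA given above. No single cell held more than 2.37% of the Icam1 UMIs in any of the 3 fibroblast labels. By the same split of colon cells, Y-linked and Xist CD81- FBs had 370 and 374 CPM of Icam1, and trophocytes 553 and 405.

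Icam1 and Pecam1 were the members called higher in the colon among both CD81- FBs and trophocytes, 2 of 6 in each, where 6.46% of 12194 and 4.23% of 10454 genes were; 0 members were called the other way, against 10.4% and 8.24% of genes. Over the 3 fibroblast labels together, Icam1 (1.09) and Pecam1 (1.60) were called higher in the colon, where 6.88% of 13307 genes were, and Selp in the small intestine, from 4 and 23 UMIs, where 9.47% were. The median gene stood at -0.22 in CD81- FBs and -0.11 in trophocytes, and relative to it Icam1 reached 1.26 and 1.57.

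The genes leading beside Icam1 differed only in part by fibroblast label, and some recurred across labels. By the partner rule, Icam1 in CD81- FBs was led by Atf3, Dnajb1 (a heat shock co-chaperone), Iigp1, Fos and Egr1 in the colon and by Atf3, Dnajb1, Fosb, Nfkbiz and Zfp36 in the small intestine. Atf3 stood at 273 CPM with and 133 without Icam1 in the colon, and at 278 and 115 in the small intestine. Summed over 8 immediate early genes, a list added after the data were seen, CD81- FBs with Icam1 had 6834 against 3859 CPM in the colon (log2 0.82) and 6516 against 3532 in the small intestine (0.88). The same difference was 0.69 in colon trophocytes, 0.78 in colon SEMFs and 0.50 in small intestinal SEMFs, but 0.12 in small intestinal trophocytes (18505 against 17014 CPM). Those genes are known to respond to tissue dissociation, which lasted 60 min and 45 min. Of the 8, 0 were called higher in colon CD81- FBs and 0 in colon trophocytes, and 7 were in colon SEMFs (5.36% of all genes). In the small intestine 0 were called higher in CD81- FBs, 1 in trophocytes (8.24% of genes), 4 in BECs (18.7%) and 6 in LECs (14.7%). Their part in the Icam1 result was not tested. In colon trophocytes, Icam1 was led by Taf4b, Gm26885, Nup210l, Rasl11a and Fosb, with Taf4b at 107 against 34.9 CPM. In colon SEMFs the leading genes were Atf3, Cdkn1a, Zfp36, Ier3 and Irgm2, with Atf3 first as in CD81- FBs of both libraries. In small intestinal SEMFs they were Eln, the gene of elastin, Gsn, an actin-severing protein, Fosb, Zeb2 and Gas7. In small intestinal trophocytes, Icam1 was led by Birc3, Cxcl1 and Irf1, which respond to NF-kB or interferon, with Birc3 at 259 against 162 CPM. Nop58 and Nup210l followed, so Nup210l was among the leading genes in trophocytes of both libraries.

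Vcam1, the ligand of integrin alpha4beta1, had opposite orders of BECs and fibroblasts in the 2 libraries. In the colon, CD81- FBs had 178 CPM (172 to 183) and BECs 33.4 (15.3 to 63.4), whereas in the small intestine CD81- FBs had 106 (101 to 110) and BECs 224 (205 to 245). The log2 ratio of BECs to CD81- FBs was -2.41 and 1.09. Vcam1 was seen in 61.0% of colon and 42.5% of small intestinal CD81- FBs, and the tissue ratio was 0.75 (0.68 to 0.83). That stays under 2-fold, and so does the value relative to the median gene, 0.97.

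The BEC side of Vcam1 rests on few cells. Colon BECs had 9 UMIs in 5 cells, and without cells holding 2 or more Dcn UMIs the tissue ratio went from -2.75 (-3.89 to -1.81) to -5.32. Small intestinal BECs had 492 UMIs in 119 cells, of which 1 cell held 69, or 14.0%. BECs without Ackr1 gave the -0.76 stated above.

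**Figure D4:**
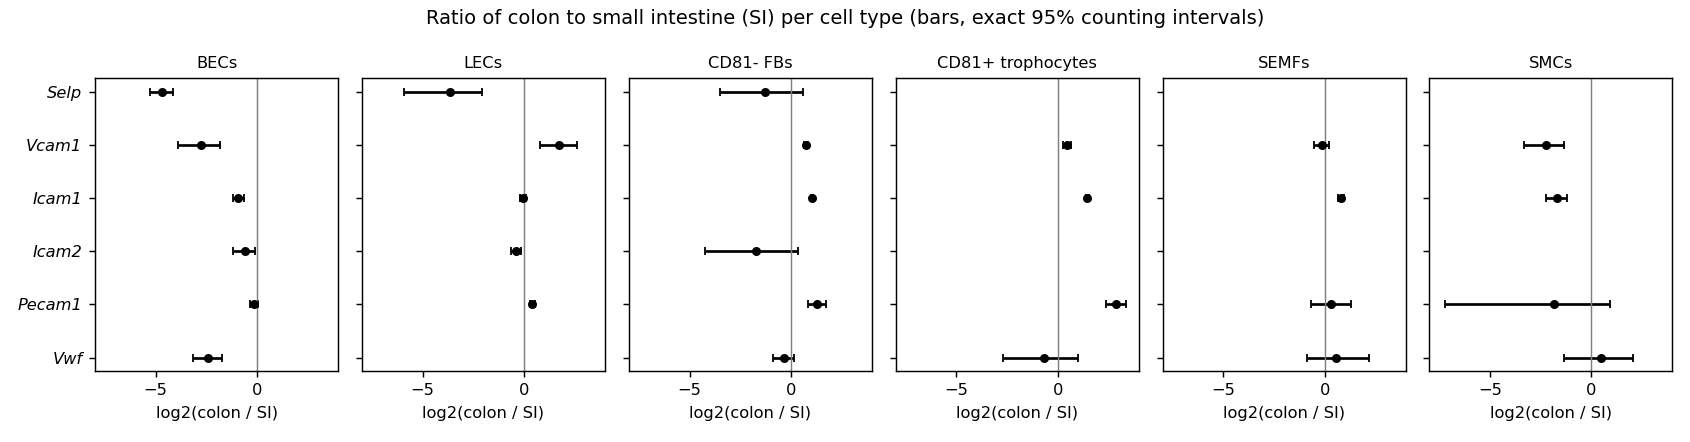
Log2 ratio of colon to small intestine for the 6 members listed in both libraries, by cell type, with exact 95% counting intervals; members with under 10 UMIs in both libraries together or with none in 1 of them are not drawn. Selp, Vcam1 and Vwf lie to the left of 0 in BECs, Icam1 and Pecam1 to the right in CD81- FBs and trophocytes, and Vcam1 and Icam1 to the left in SMCs.

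Among other fibroblast labels, trophocytes had 66.7 and 48.5 CPM of Vcam1 (0.46, 0.28 to 0.64) and SEMFs 18.7 and 20.7 CPM (-0.15, -0.50 to 0.21). SMCs had 12.9 and 62.4 CPM (-2.27, -3.35 to -1.35), so that with Icam1 2 of 6 members were called higher in small intestinal SMCs, where 17.3% of 5602 genes were, and 0 in colon SMCs (3.37% of genes). In SEMFs the 2 members called higher in the small intestine, where 15.1% of 10001 genes were, were Selp and Icam2, each with 0 colon and 7 small intestinal UMIs, at most -1.41. In colon SEMFs 0 were called, against 5.36% of genes. Within the colon library, SEMF Vcam1 was lower by log2 -1.03 (-1.72 to -0.38) and CD81- FB Vcam1 higher by 0.33 (0.23 to 0.43) in the Y-linked than in the Xist cells.

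The genes leading beside Vcam1 in fibroblasts differed only in part by label. In CD81- FBs, Cxcl13, a B-cell attracting chemokine, led in the colon (890 CPM with and 603 without Vcam1) and ranked among the leading 5 in the small intestine (150 and 70.3), where Cxcl14, Unc5c and Mmp10 came before it. Cxcl13 was also among the leading 5 in small intestinal trophocytes (248 against 111 CPM), after Rgs5 and Alk. The interferon-linked Cxcl10 led in colon SEMFs (271 against 45.9 CPM), and Adamdec1, a protease, in colon trophocytes (390 against 107). Sfrp1 led in small intestinal SEMFs, and C3 was among the leading 5 both there and in colon CD81- FBs. Unlike Icam1, Vcam1 in CD81- FBs did not go with the immediate early genes, which summed to 5744 with and 6098 CPM without it in the colon and to 4599 and 5498 in the small intestine.

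Icam2 and Pecam1 were high in endothelium of both kinds, and neither was called different between the tissues in BECs or LECs. Icam2, a resting endothelial ligand of LFA-1, had 122 CPM (84.2 to 172) in colon and 186 (169 to 205) in small intestinal BECs, in 41.5% and 49.4% of cells, a ratio of -0.60 (-1.16 to -0.09). Pecam1 had 942 CPM (830 to 1065) and 1035 (993 to 1079) in BECs, in 92.5% and 92.9% of cells, a ratio of -0.14 (-0.33 to 0.05), and this interval leaves out a 2-fold difference. In LECs Pecam1 had 582 and 440 CPM, in 89.9% and 79.9% of cells (0.40, 0.28 to 0.52). Fibroblast labels had at most 1.07 CPM of Icam2.

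Pecam1 UMIs were also found in cells with the trophocyte label in the colon. It stood at 24.2 CPM (20.5 to 28.3) there, in 93 of 875 cells, or 10.6% (8.66 to 12.9), and at 3.33 CPM in small intestinal trophocytes, in 2.09% of cells, a ratio of 2.86 (2.39 to 3.35). The top cell held 7 of 154 UMIs. In colon CD81- FBs the level was 6.84 CPM against 2.83 (1.27, 0.83 to 1.73). At the proportions of colon BECs, the 154 Pecam1 UMIs of trophocytes would come with 66.1 Cdh5 and 113 Emcn UMIs, and 4 and 6 were found. Icam2 had 3 UMIs there, against 20.01 at the proportions of colon BECs and 34.3 at those of colon LECs. In small intestinal trophocytes 50 Pecam1 UMIs came with 0 Icam2, 14 Cdh5 and 12 Emcn, where the BEC proportions would give 8.99, 32.5 and 31.2. In colon CD81- FBs 169 Pecam1 UMIs came with 18 Cdh5 and 19 Emcn, against 72.5 and 124 at BEC proportions. In small intestinal CD81- FBs 57 came with 8 Icam2, 25 Cdh5 and 43 Emcn, against 10.2, 37.0 and 35.6. The counts there lay nearer to the BEC proportions and Emcn above them. In colon SEMFs 24 Pecam1 UMIs came with 0 Icam2, 9 Cdh5 and 18 Emcn, against 3.12, 10.3 and 17.7 at BEC proportions. In small intestinal SEMFs 17 came with 7 Icam2, 7 Cdh5 and 11 Emcn, against 3.06, 11.05 and 10.6. The source of the Pecam1 RNA in these labels was not tested.

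For each member listed in both libraries, the 3 genes most alike over the 12 type and library levels were taken from 13950 genes by Pearson's r of log2(CPM + 10), as a description, since the points share libraries and cells. Selp was closest to Epb41l4a (0.995), Icam2 to Mmrn2 and Cdh5 (both 0.999), Pecam1 to Ctla2a (0.994), Vwf to Tmem252 (0.993), Vcam1 to Itga2 (0.916) and Icam1 to Itpr3 (0.922). When 1 CPM was added in place of 10, or the points of 1 library were used alone, fewer than 2 of the 3 genes were found again in 14 of 18 repeats.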

How the data were processed

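The members and gene lists were chosen with earlier results of these data known. The authors deposited, per library, a table of raw UMI counts with cell labels and a table of natural log values, which matched ln(1 + 10000 × count / cell total) within 6.2e-15. Cell Ranger 7.1.0, Seurat 4 and mm10 are named in the submitters' processing notes; cell filters and doublet treatment are not given in the sources used here, and no doublets were removed here. Columns outside the 2 libraries numbered 0. Colon capillary, arterial and venous labels were pooled as BECs. Counts were summed per type with Python 3.11.15, numpy 2.4.6, scipy 1.17.1 and pandas 2.3.3, after the interval script was tested on simulated counts; figures used matplotlib 3.10.9.

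The background was all genes whose UMIs in a type summed to 100 or more over the 2 libraries. Named genes are the members, list genes with at least 10 UMIs, the 3 most alike genes per member and the 5 leading partners, where at least 50 cells had and 50 lacked the member and the gene was seen in at least 20% of positive cells. Alternatives were other folds (1.5 and 4), cell subsets, scaling to the median gene, mean CPM over cells and the mean natural log value.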

Additional observations from a re-analysis of the deposited data

Results flagged for a closer look

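Vcam1 was higher in CD81- FBs than in BECs in the colon (log2 BECs over CD81- FBs of -2.41) and lower in the small intestine (1.09). The opposite directions stood in 1 library per tissue and the difference was not tested. The 24 small intestinal cells labelled Proliferating, which no comparison used, held 82 Icam1 UMIs in 16 cells, 48 Icam2 UMIs in 17 cells and 56 Pecam1 UMIs in 17 cells, above the limit of 3 counts that a count of 0 allows.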

How the results depend on the processing

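No paired analysis was possible because each tissue has 1 library. Each tissue ratio of a member was repeated under the alternatives. Of these repeats, 211 stayed close to the reported value, 57 moved and 1 was counted as turned: Vcam1 in LECs, to -1.07 in cells with fewer than 2 Dcn UMIs. Some ratios whose reported interval includes 0 also changed sign under an alternative. Vwf went from 0.59 to as low as -0.37 in SEMFs and from 0.48 to -0.48 in SMCs. Pecam1 in BECs went from -0.14 to as high as 0.15, Icam1 in LECs from -0.05 to 0.27 and Vcam1 in SEMFs from -0.15 to 0.19. The count of members called moved as follows, and the cause was not tested. With the mean of the deposited natural log values, which compresses high counts, it was 1 in small intestinal BECs and 0 in colon and small intestinal LECs, colon CD81- FBs, colon trophocytes, small intestinal SEMFs and small intestinal SMCs. Beyond 4-fold it was 0 in colon LECs, colon CD81- FBs and small intestinal SEMFs and 1 in colon trophocytes and small intestinal SMCs; beyond 1.5-fold it was 5 in small intestinal BECs and 1 in colon SEMFs. By mean CPM over cells it was 2 in small intestinal CD81- FBs, 1 in colon SEMFs, 0 in small intestinal SEMFs and 1 in colon SMCs. Relative to the median gene it was 1 in colon SEMFs. In small intestinal SEMFs it was 0 without the top cell of each gene, 0 with Y-linked or with Xist colon cells alone and 1 without the 5% of cells with most UMIs. It was 0 in colon LECs with fewer than 2 Dcn UMIs. The number of members highest in colon BECs was 5 both without the 5% of cells with most UMIs and without cells with leukocyte or platelet marker UMIs. Depth limits colon BECs most, where 269665 UMIs mean that 3 counts correspond to 11.1 CPM.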

Other observations

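Lymphoid organiser genes were read in the same types from a list of 9, of which 8 were listed in both libraries. The list was Cxcl13, Ccl19, Ccl21a, Tnfsf11, Tnfsf13b, Il7, Grem1, Cd34 and Ltbr. A place on it does not mean that a gene acts in homing or in follicles. In BECs 3 of them were called higher in the colon (3.10% of all genes) and 1 in the small intestine (18.7%), and in LECs 4 (3.45%) and 0 (14.7%); fibroblast markers were also higher in both colon types. In CD81- FBs 3 were called higher in the colon (6.46%) and 2 in the small intestine (10.4%). In trophocytes these counts were 1 (4.23%) and 4 (8.24%), in SEMFs 1 (5.36%) and 3 (15.1%), and in SMCs 1 (3.37%) and 3 (17.3%). Ccl21a, the chemokine of lymphatic vessels, stood at 7.42 CPM in colon BECs and 416 CPM in small intestinal BECs, a log2 ratio of -5.81, and lymphatic markers summed to 66.7 and 1287 CPM in the same cells. Selplg, the leukocyte ligand of P-selectin, had 10 UMIs in colon BECs and 5 in small intestinal BECs.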
